A study of Homo sapiens with 12 samples.

Results

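The genes described here encode glucagon and the proteins that turn its precursor into hormone. They are GCG, PCSK2, PCSK1, PCSK1N, SCG5, CPE, PAM and TTR, found by symbol as 8 of the 28278 rows of the count table. Only PCSK2, PCSK1, CPE and PAM are enzymes: PCSK1N and SCG5 encode binding proteins of the convertases, GCG the substrate, and TTR the plasma carrier transthyretin. RNA was counted in 12 bulk samples of alpha cells derived from stem cells of the HUES-8 line, an established line of human embryonic origin. DMSO alone was given to 6 samples, and 5 uM tunicamycin, which blocks N-glycosylation and so stresses the endoplasmic reticulum (ER), to the other 6, for 48 h in 30 mL bioreactors turning at 40 rpm. Each group has samples numbered 1 to 6, with 1 to 3 in sequencing batch 1 and 4 to 6 in batch 2. All samples come from 1 cell line. The labels call the replicates biological without saying whether each was its own differentiation, and p-values cover only the spread among the 12 samples. The comparison asks how ER stress alters gene expression in alpha cells, here for the hormone and its processing genes.

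Alpha cells store glucagon, the hormone that raises blood glucose, in secretory granules. Its precursor, proglucagon, enters the ER and is cut at paired basic residues as the granule matures and acidifies. The convertase encoded by PCSK2 releases glucagon, while the convertase encoded by PCSK1, dominant in intestinal L cells, releases glucagon-like peptide 1 from the same precursor. Carboxypeptidase E (CPE) then trims the basic residues left at the end of each peptide, and PAM converts a terminal glycine to an amide on peptides that carry one.

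The regions just before the start sites are shown for the hormone gene, both convertase genes and CPE, the member with the largest fitted change. They are the 250 bases before a RefSeq start site (GRCh38.p14), read 5′ to 3′ on the strand of the gene. A RefSeq entry was found for 7 of the 8 members (11 windows), and TTR was not matched. Capitals mark matches to the cAMP response element, TGACGTCA, and to the TATA box, TATAAA. They also mark the core of the unfolded protein response element, TGACGTG, and an element bound by dimers of C/EBP and ATF factors, TGATGNAA. The ER stress element, which joins a CCAAT box to a CCACG box, was searched as well. The TATA box was searched on the plus strand only and the others on both strands.
GCG (chr2:162152248-162152497, minus strand): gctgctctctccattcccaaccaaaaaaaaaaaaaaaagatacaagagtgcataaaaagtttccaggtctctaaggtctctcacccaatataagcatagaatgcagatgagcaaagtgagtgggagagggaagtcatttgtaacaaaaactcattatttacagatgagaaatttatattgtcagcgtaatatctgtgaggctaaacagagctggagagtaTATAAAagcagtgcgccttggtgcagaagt
PCSK2 (chr20:17226790-17227039, plus strand, the later of 2 starts): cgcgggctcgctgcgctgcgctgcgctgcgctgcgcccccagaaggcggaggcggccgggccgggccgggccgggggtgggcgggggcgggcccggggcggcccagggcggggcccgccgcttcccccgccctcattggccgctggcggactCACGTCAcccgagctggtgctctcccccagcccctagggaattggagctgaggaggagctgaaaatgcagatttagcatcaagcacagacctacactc
PCSK1 (chr5:96433249-96433498, minus strand, the earlier of 2 starts): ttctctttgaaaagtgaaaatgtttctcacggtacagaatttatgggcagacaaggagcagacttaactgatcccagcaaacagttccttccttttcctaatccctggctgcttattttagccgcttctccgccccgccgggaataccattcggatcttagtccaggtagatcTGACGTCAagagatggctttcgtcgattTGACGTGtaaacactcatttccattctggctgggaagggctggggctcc
CPE (chr4:165378758-165379007, plus strand): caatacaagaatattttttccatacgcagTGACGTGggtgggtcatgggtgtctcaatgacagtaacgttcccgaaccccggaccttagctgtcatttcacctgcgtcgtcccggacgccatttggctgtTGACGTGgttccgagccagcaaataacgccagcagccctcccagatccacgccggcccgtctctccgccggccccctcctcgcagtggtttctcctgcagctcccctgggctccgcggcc

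The CPE window held TGACGTG at 2 places, from 221 and from 120 bases before the start. The PCSK1 window held a cAMP response element from base -77 to -70 and TGACGTG from -49 to -43, and the PCSK2 window held TGACGTG on the opposite strand from -98 to -92. The GCG window held only a TATA box, from -30 to -25. Among all 35116 windows of the same length, 1.68% held TGACGTG and 1.65% held TGACGTCA. A TATA box was present in 6.80% of them, TGATGNAA in 3.14% and the ER stress element in 0.0740%. The other start of PCSK1 had a TATA box and TGATGCAA, and the windows of PCSK1N, SCG5 and PAM and the other start of PCSK2 held no match. These matches describe the letters of the windows and show no binding.

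Library totals ran from 17523442 to 28872269 counts. Levels are given as CPM, the usual per-library count scale, after scaling of the library sizes. Tunicamycin raised HSPA5, the main ER chaperone gene, from 844 ± 144 to 5267 ± 1021 CPM (SD, n = 6 each) and DDIT3, which encodes CHOP, from 26.2 ± 3.7 to 115 ± 19 CPM. The adjusted p from edgeR was 3.7e-07 and 4.1e-07. IRX2, which encodes a transcription factor of alpha cells, was at 236 ± 34 CPM in DMSO. Signs of other cells were present too: SST (somatostatin, the delta cell hormone) ran from 956 to 5207 CPM in DMSO samples and INS (insulin) from 53.9 to 339 CPM. The sum of 10 heart muscle markers ran from 35 to 2078 CPM in DMSO and from 32 to 1176 CPM with tunicamycin. The sum of 12 mesenchymal markers ran from 848 to 2982 and from 887 to 1712 CPM. Of these 12, 0 rose and 0 fell, and with the sample number as a block 10 fell. Over all tested genes 4.56% rose and 3.29% fell, and with the block 8.93% and 8.4%. Of 8 ductal and acinar markers 4 fell and 0 rose (5 and 0 with the block). Their sum ran from 318 to 471 CPM in DMSO and from 149 to 251 CPM with tunicamycin, without overlap, and was lower in 6 of 6 pairs. Of 8 tested beta cell markers 3 fell and 0 rose (4 and 0 with the block), and the sum of the list ran from 1557 to 3923 and from 775 to 2761 CPM. Of 6 enterochromaffin markers 0 rose and 2 fell (1 and 3 with the block). None of the 10 heart muscle, 6 delta, PP and epsilon cell or 3 tested pluripotency markers was called, and with the block 1, 1 and 0 of them fell. The part of these markers in the results on the members was not tested. In bulk RNA, fewer cells of a type and less RNA per cell cannot be told apart.

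GCG was the most abundant member and TTR the next. Per kb of exon, GCG stood at 31246 ± 5865 CPM in DMSO, TTR at 8977 ± 1680, PCSK1N at 1082 ± 277 and CPE at 537 ± 135 (SD, n = 6 each). PAM followed at 42.8 ± 10.1, PCSK1 at 25.8 ± 7.8 and PCSK2 at 24.4 ± 9.8 CPM per kb. The DMSO ranges of neighbours in this order did not overlap from GCG down to PAM, and those of PAM, PCSK1 and PCSK2 overlapped. The mRNAs of the 2 convertases that cut proglucagon were therefore at like levels per length. With tunicamycin the order of the means changed at 1 place, with PCSK2 at 21.7 ± 4.2 and PCSK1 at 20.4 ± 3.9 CPM per kb, and PCSK1N (826 ± 261) and CPE (819 ± 238) came to overlap.

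**Figure D1:**
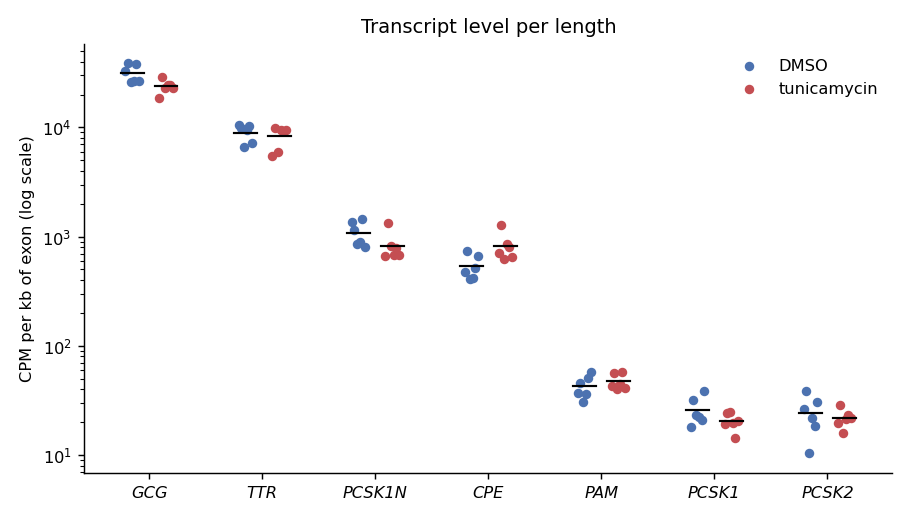
Transcript level of the 7 members with counts, as CPM per kb of exon on a log axis, in 6 DMSO (blue) and 6 tunicamycin (red) samples. Points are samples and black lines are group means. GCG and TTR lie above all other members, and PCSK1 and PCSK2 lie together at the bottom.

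SCG5, which encodes the chaperone 7B2 that PCSK2 needs to become active, could not be assessed. It was listed with 11 counts over all 12 samples: 1 in DMSO 2, 4 in DMSO 4, 1 in tunicamycin 3, 5 in tunicamycin 4 and 0 in the other 8. A count of 0 allows up to 3 counts, or 0.104 to 0.171 CPM depending on the library, for counting error only. SCG5 (chromosome 15, 32641676 to 32697098, plus strand) lies wholly inside the RefSeq readthrough gene ARHGAP11A-SCG5. That gene is a row of the same table with 0 counts in every sample. The sources used here do not give how reads lying in both genes were assigned, and its part in the low counts was not tested. The values therefore say nothing about whether the cells made SCG5 mRNA.

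No tested member passed the main test between tunicamycin and DMSO, whose model had batch but not sample number. CPE passed in the fit with the sample number as a block, given below. Of the 7 members that passed the filter on low counts, 0 rose and 0 fell at an adjusted p below 0.05 in edgeR's quasi-likelihood test, against 7.84% of all 17137 tested genes called (4.56% higher and 3.29% lower). At an unadjusted p below 0.05 there were 2 of 7, GCG and CPE, against 3775 of all 17137 genes. DESeq2 called both, GCG lower and CPE higher (12.5% of its genes called, 6.52% higher and 6.01% lower). With the sample number as a block, 1 member, CPE, was called higher, against 17.3% of genes called (8.93% higher and 8.4% lower). The fitted value was below 0 for 5 members and above 0 for CPE and PAM, with a median of -0.17 on the log2 scale against -0.012 over all tested genes. No member had groups without overlap, which 3.77% of tested genes had.

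**Figure D2:**
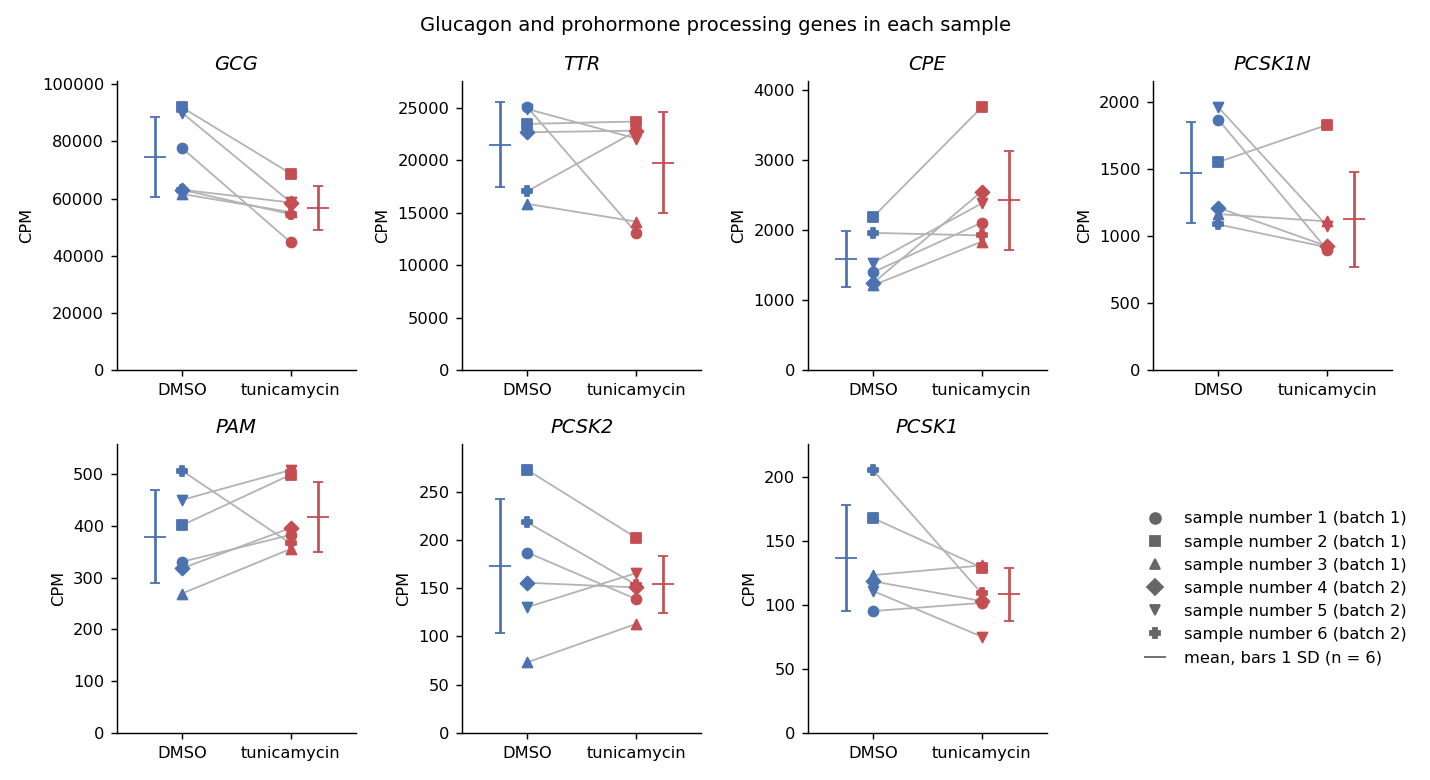
CPM of the 7 members with counts in each sample, DMSO (blue) left and tunicamycin (red) right of each panel. Grey lines join samples with the same number, and the outer bars are mean and 1 SD (n = 6). GCG falls along all 6 lines, CPE rises along 5 of 6, and the groups overlap in every panel.

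GCG (chromosome 2, 162142873 to 162152404, minus strand, GRCh38) was lower in every pair of equal number without passing the test. In DMSO samples 1 to 6 it stood at 77697, 91921, 61638, 63111, 90037 and 63103 CPM. In tunicamycin samples 1 to 6 it stood at 44729, 68773, 55267, 58639, 58734 and 54553 CPM. The groups overlapped only through tunicamycin 2: the other 5 treated samples lay below the lowest DMSO sample. This gave a log2 fold change of -0.39 ± 0.16 (SE; 95% interval -0.74 to -0.04; edgeR adjusted p = 0.176), or a level 1.31-fold lower. It was -0.44 in batch 1 and -0.33 in batch 2. A lower value in 6 of 6 pairs was seen in 10.4% of all tested genes. With the sample number as a block the adjusted p was 0.0628, and with DESeq2 it was 0.0374. The drop ran from 0.11 on the log2 scale in the samples numbered 4 to 0.80 in those numbered 1.

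The convertase genes did not pass either, and samples of 1 group differed widely. PCSK2 (chromosome 20, 17226107 to 17484578, plus strand) stood at 187, 272, 73.2, 156, 130 and 218 CPM in DMSO samples 1 to 6. With tunicamycin it stood at 139, 202, 113, 151, 166 and 153 CPM. All treated values lay inside the DMSO range, and the spread was smaller with treatment (SD 29.6 against 69.6 CPM). Its log2 fold change was -0.17 ± 0.25 (95% interval -0.70 to 0.37, adjusted p = 0.754), with 2 pairs higher and 4 lower. Without DMSO 2, the highest sample, it was 0.04. A 1.63-fold decrease or a 1.29-fold increase thus lies within the interval.

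PCSK1 (chromosome 5, 96390415 to 96434143, minus strand) stood at 95.3, 168, 123, 119, 111 and 206 CPM in DMSO. In the treated samples it stood at 102, 129, 131, 103, 75.4 and 109 CPM. The 3 pairs of batch 2 were all lower, while 2 of the 3 pairs of batch 1 were higher. The log2 fold change was -0.35 ± 0.19 (95% interval -0.75 to 0.06, adjusted p = 0.308), with -0.08 in batch 1 and -0.60 in batch 2. The difference between batches, -0.50 ± 0.36, did not pass the interaction test (adjusted p = 1.00). With the mean of the mesenchymal markers as a covariate the value was -0.64, just past the threshold (adjusted p = 0.0499). These markers were measured in the same treated samples, and their median log2 fold change was -1.20. That fit can therefore take up part of the treatment effect.

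PCSK1N encodes proSAAS, an inhibitor of the PCSK1 convertase that is itself cut in the granule. PCSK1N (chromosome X, 48831094 to 48835633, minus strand) stood at 1868, 1553, 1165, 1211, 1961 and 1087 CPM in DMSO samples 1 to 6. In tunicamycin samples 1 to 6 it stood at 899, 1829, 1110, 925, 1076 and 917 CPM. It was lower in 5 of 6 pairs, and tunicamycin 2 lay far above the other treated samples. The log2 fold change was -0.40 ± 0.20 (95% interval -0.82 to 0.02, adjusted p = 0.253), and without tunicamycin 2 it was -0.57 (adjusted p = 0.0595). The size of the change was close to that of GCG, but the difference between these genes was not tested.

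CPE (chromosome 4, 165361194 to 165498320, plus strand) was the member with the largest fitted change. It stood at 1398, 2184, 1210, 1240.5, 1533 and 1959 CPM in DMSO samples 1 to 6. With tunicamycin it stood at 2105, 3751, 1834, 2550, 2380 and 1923 CPM. CPE was higher in 5 of 6 pairs and nearly equal in the samples numbered 6, and the groups overlapped through DMSO 2 and DMSO 6. The log2 fold change was 0.61 ± 0.20 (95% interval 0.18 to 1.04), or 1.52-fold, with an adjusted p of 0.0840. With the sample number as a block CPE rose (0.60 ± 0.12, adjusted p = 0.00616), and DESeq2 called it too (adjusted p = 0.0211). It was also called without DMSO 2 (0.73, adjusted p = 0.0442). With the mesenchymal mean as a covariate, which can take up part of the treatment effect, it was at 0.35 (adjusted p = 0.380). Within batches it was at 0.69 and 0.53.

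PAM (chromosome 5, 102753981 to 103031105, plus strand), the amidating enzyme gene, stood at 330, 401, 269, 318, 450 and 506 CPM in DMSO. In tunicamycin samples 1 to 6 it stood at 382, 499, 355, 396, 508 and 366 CPM. It was higher in the first 5 pairs and lower in the samples numbered 6, the same pair that stood apart for CPE. On the log2 scale PAM changed by a fitted 0.15 ± 0.15 (95% interval -0.18 to 0.48, adjusted p = 0.619), with 0.32 in batch 1 and -0.0040 in batch 2. The interval runs from 0.886-fold to 1.39-fold.

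TTR (chromosome 18, 31557010 to 31599021, plus strand) encodes a carrier of thyroxine and retinol-binding protein that liver and islet alpha cells make. It stood at 25052, 23472, 15849, 22673, 24890 and 17070 CPM in DMSO and at 13116, 23700, 14159, 22833, 22078 and 22782 CPM with tunicamycin. Tunicamycin 1 and 3 and DMSO 3 and 6 were low, and the other 8 samples lay between 22078 and 25052 CPM. The log2 fold change was -0.13 ± 0.19 (95% interval -0.53 to 0.26, adjusted p = 0.731), with 3 pairs higher and 3 lower. It was -0.33 in batch 1 and 0.07 in batch 2, a difference that did not pass (interaction 0.40 ± 0.38, adjusted p = 1.00). Beside it, 4 of 8 liver and gut markers fell and 0 rose (7 and 0 with the block), ALB (albumin) from 9.88 ± 5.64 to 2.34 CPM and AFP from 33.1 ± 18.3 to 8.62 CPM among them. Calls as lower made up 3.29% of all tested genes, and 8.4% with the block. The summed level of the 8 liver and gut markers ran from 767 to 1294 CPM in DMSO and from 634 to 821 CPM with tunicamycin. It was lower in 6 of 6 pairs, and its part in the TTR values was not tested.

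**Figure D3:**
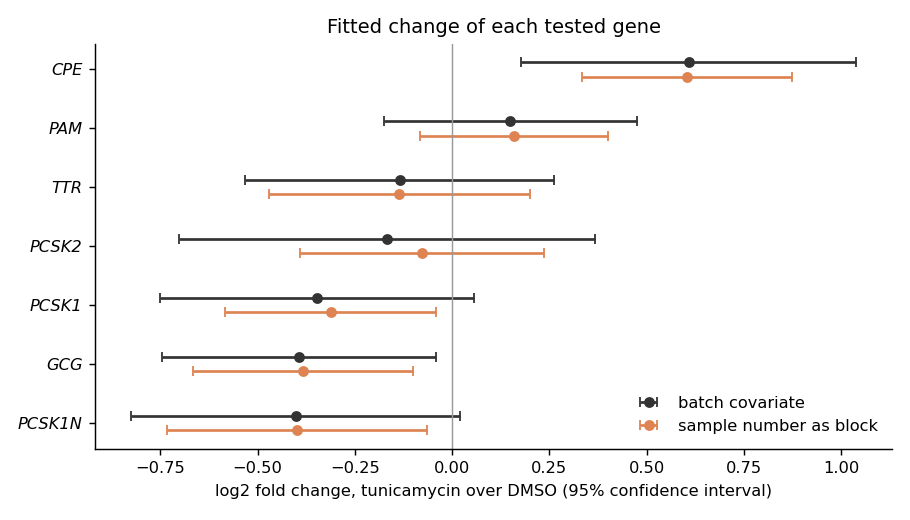
Log2 fold change of each tested member (tunicamycin over DMSO) with its 95% confidence interval, from the fit with batch as covariate (black) and with the sample number as block (orange). CPE lies to the right at 0.61 and 0.60, GCG and PCSK1N to the left near -0.40, and the intervals of PCSK2, PAM and TTR include 0 in both fits.

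The response of the members was not shown to differ between sequencing batches. In edgeR's interaction test 0 of 7 members passed, against 0.0% of all tested genes, and 0 had an unadjusted p below 0.05. DESeq2 called 0 members as well, and its share over all genes is not given here. As no tested gene passed in edgeR, the 0 says nothing particular to the members.

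Levels of the members differed between samples within each group. The samples numbered 2 were the highest of their group for GCG, PCSK2 and CPE in both groups, and for PCSK1N and TTR in the tunicamycin group. They also had the lowest sums of mesenchymal markers (848 and 887 CPM), heart muscle markers (35 and 32 CPM) and beta cell markers (1557 and 775 CPM) of their groups. DMSO 3 was the lowest DMSO sample for GCG, PCSK2, CPE, PAM and TTR, while its sum of enterochromaffin markers, 751 CPM, was the highest. The part of these other cells in the levels of the members was not tested. Relative to its mean, PCSK2 varied most among DMSO samples, with a coefficient of variation of 40.3%, against 18.7% for TTR and 18.8% for GCG.

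Ratios of counts within a sample do not depend on library scaling. CPE counts per 1000 GCG counts were 17.99, 23.8, 19.6, 19.7, 17.0 and 31.1 in DMSO samples 1 to 6. In tunicamycin samples 1 to 6 they were 47.1, 54.5, 33.2, 43.5, 40.5 and 35.3. The groups did not overlap, and the mean was 21.5 ± 5.2 with DMSO and 42.3 ± 7.9 with tunicamycin (SD, n = 6 each). This ratio was chosen after its values were seen. Of the tested genes other than GCG, 9.58% had a ratio to GCG whose groups did not overlap. The ratio was higher in 6 of 6 pairs, by 0.99 on the log2 scale on average.

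The balance of the convertases moved less than it varied between samples. PCSK1 counts per PCSK2 count averaged 0.895 ± 0.418 with DMSO and 0.731 ± 0.233 with tunicamycin. The samples numbered 3 had the highest ratio in both groups (1.69 and 1.16), and 4 of 6 pairs were lower. PCSK2 counts per 1000 GCG counts averaged 2.32 ± 0.87 and 2.71 ± 0.37, and PCSK1 counts per 1000 GCG counts 1.91 ± 0.74 and 1.93 ± 0.39. PCSK1N counts per PCSK1 count averaged 11.9 ± 5.5 and 10.5 ± 2.9. The groups overlapped for each of these ratios, and the mean difference was smaller than the SD among DMSO samples. No ratio of SCG5 to PCSK2 was taken.

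**Figure D4:**
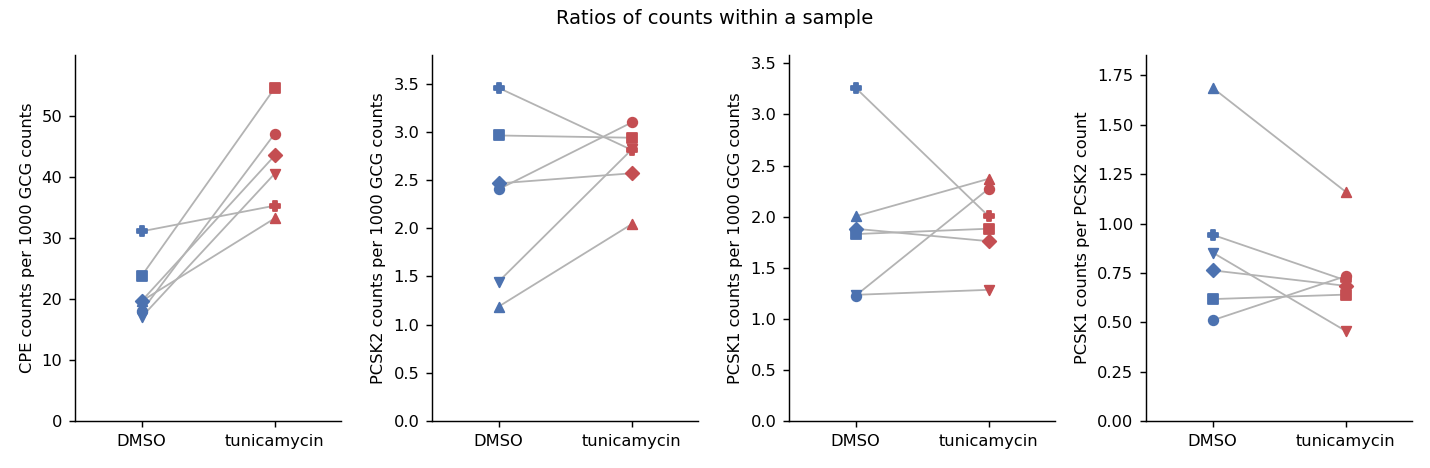
Ratios of counts within each sample, DMSO (blue) and tunicamycin (red), with grey lines joining samples of the same number and marker shapes as in the plot of CPM by sample. CPE per 1000 GCG counts lies between 17.0 and 31.1 with DMSO and between 33.2 and 54.5 with tunicamycin, while the other ratios overlap.

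Other genes that act on prohormones were called in both directions. Among all tested genes 4.56% were called higher and 3.29% lower (8.93% and 8.4% with the block). Of 7 other proprotein convertase genes, 0 rose and 0 fell (median -0.08, against -0.012 over all tested genes). At an unadjusted p below 0.05 there were 3, MBTPS1 among them. MBTPS1 encodes the site-1 protease that cuts ATF6, and it was called with the block (0.31, adjusted p = 0.0154). FURIN, the convertase of the constitutive pathway, was at 442 ± 110 CPM with DMSO and 485 ± 107 with tunicamycin. Of 15 genes of peptide trimming and modification, 2 rose and 2 fell (median -0.15). With the block 3 rose and 3 fell, the further calls being the lysosomal protease gene CTSL (higher in 6 of 6 pairs, adjusted p = 0.0054) and CPXM1, of the carboxypeptidase family (lower in 6 of 6 pairs, adjusted p = 0.0013). CPM, a membrane carboxypeptidase gene, fell in 6 of 6 pairs (-0.74 ± 0.12, adjusted p = 0.0021). TPST2, a tyrosylprotein sulfotransferase gene, fell from 58.1 ± 7.2 to 35.7 ± 5.0 CPM (-0.70 ± 0.11, adjusted p = 0.0016). CTSB, another lysosomal protease gene, rose by 0.54 (adjusted p = 0.0204) and QPCTL, a glutaminyl cyclase gene, by 0.61 (adjusted p = 0.0382). The call of CTSB was lost without DMSO 4 or tunicamycin 4 (0.0508 and 0.0595), and that of QPCTL without any of 9 samples, all but DMSO 3, DMSO 5 and tunicamycin 2 (0.0572 to 0.0860). Without the batch term both were lost (0.0629 and 0.0631). CTSB was also lost with the mesenchymal covariate (0.130), and QPCTL with upper quartile factors (0.0588) or unscaled library totals (0.0557).

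The few sorting and proton pump genes called in the main fit were higher, and no granin gene was called. The shares over all tested genes were 4.56% higher and 3.29% lower (8.93% and 8.4% with the block). Of 12 granin and sorting genes 1 rose and 0 fell, or 3 and 0 with the block (median 0.20). The member that rose was HID1, which acts in granule formation at the Golgi (0.41, adjusted p = 0.0219), a call lost without DMSO 1 or 4 or tunicamycin 3, 4 or 6 (0.0505 to 0.0576) or with the mesenchymal covariate (0.0977). CHGA, which encodes chromogranin A, was at 1261 ± 241 CPM with DMSO and 1180 with tunicamycin. Of 18 subunits of the proton pump that acidifies the granule 2 rose and 0 fell, against 3 and 1 with the block (median -0.02). ATP6V0A1 rose from 208 ± 31 to 362 ± 59 CPM (0.79 ± 0.13, adjusted p = 0.0015), with no overlap between groups. ATP6V0A2 rose by 0.50 (adjusted p = 0.0246), a call lost without DMSO 1, 4 or 5 or tunicamycin 3, 4 or 5 (0.0506 to 0.0668), without the batch term (0.0671) or with unscaled library totals (0.0565).

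Partners of PAM, which needs copper and ascorbate, were called in both directions. Of 8 tested, 1 rose and 1 fell, against 3 and 1 with the block (median 0.27). For all tested genes the shares were 4.56% and 3.29% (8.93% and 8.4% with the block). CYB561, which passes electrons into the granule to regenerate ascorbate, rose from 81.7 ± 5.5 to 124 ± 14 CPM (0.61 ± 0.09, adjusted p = 0.0010), with no overlap. ATOX1, a copper chaperone gene, fell from 23.2 ± 5.2 to 15.9 ± 1.8 CPM (-0.54 ± 0.12, adjusted p = 0.0108; 0.0605 with the mesenchymal covariate). Of 5 partners of transthyretin and glucagon, STRA6, the receptor gene for retinol-binding protein, fell (-0.52, adjusted p = 0.0321), and 0 rose. With the block 2 fell, the further one being GLP1R, the receptor gene of glucagon-like peptide 1 (lower in 6 of 6 pairs, adjusted p = 0.0036). The call of STRA6 was lost without DMSO 4 or tunicamycin 2, 3, 4 or 5 (0.0628 to 0.0728). It was also lost without the batch term or with the mesenchymal covariate (0.207 each).

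Regulators of GCG transcription were called in both directions. Of 22 tested, 3 rose and 5 fell (4 and 6 with the block, median -0.15). Of all tested genes 4.56% rose and 3.29% fell (8.93% and 8.4% with the block). RFX6 and PAX6, islet cell factors of which PAX6 binds the GCG promoter, rose from 134 ± 41 to 245 ± 51 CPM (0.90 ± 0.16, adjusted p = 0.0026) and from 220 ± 51 to 403 ± 59 CPM (0.88 ± 0.17, adjusted p = 0.0048). CDX2, an intestinal factor gene, fell to 1.79 ± 0.81 CPM from 4.24 CPM (-1.22 ± 0.30, adjusted p = 0.0229). CTNNB1 (-0.51), HNF4A (-0.47) and FOXA2 (-0.38) also fell and ATF2 (0.41) rose, and these 4 were named after their values were seen. IRX2 (-0.22) did not pass. Calls were lost without 1 sample for HNF4A (9 samples, all but DMSO 1, DMSO 5 and tunicamycin 2; 0.0635 to 0.116). They were also lost for FOXA2 (DMSO 1, 4 or 5, tunicamycin 1, 4 or 5; up to 0.0839), CDX2 (DMSO 5, tunicamycin 4 or 5; 0.0551 to 0.0643) and ATF2 (tunicamycin 4; 0.0563). The mesenchymal covariate ended the calls of CDX2 (0.117), ATF2 (0.102) and FOXA2 (0.0901). Leaving out the batch term ended those of ATF2 (0.103), FOXA2 (0.0617) and HNF4A (0.0559), and limma-voom that of HNF4A (0.0508).

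Of 20 other prohormone genes, all further substrates of the same enzymes or their relatives, 17 were tested. None rose and 3 fell (median -0.47), and with the block 0 and 4, NMB (neuromedin B) being the further call (adjusted p = 0.0402). Shares over all tested genes were 4.56% higher and 3.29% lower, and 8.93% and 8.4% with the block. CRH, the gene of corticotropin-releasing hormone, fell from 45.7 ± 15.7 to 24.6 ± 8.1 CPM (-0.92 ± 0.20, adjusted p = 0.0134) and ADM (adrenomedullin) from 6.05 ± 1.18 to 3.49 ± 0.48 CPM (adjusted p = 0.0175). IAPP, which encodes amylin, was lower in 5 of 6 pairs and fell to 83.4 from 149 CPM (-0.80 ± 0.22, adjusted p = 0.0455). The call of ADM was lost without tunicamycin 4 (0.0512), and that of IAPP without DMSO 1, 5 or 6 or tunicamycin 1, 2, 4, 5 or 6 (0.0525 to 0.131). With the mesenchymal covariate ADM (0.0922) and IAPP (0.116) were lost, without the batch term CRH (0.0509), and with limma-voom IAPP (0.0502). GAST, PDYN and GRP did not pass the filter.

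**Figure D5:**
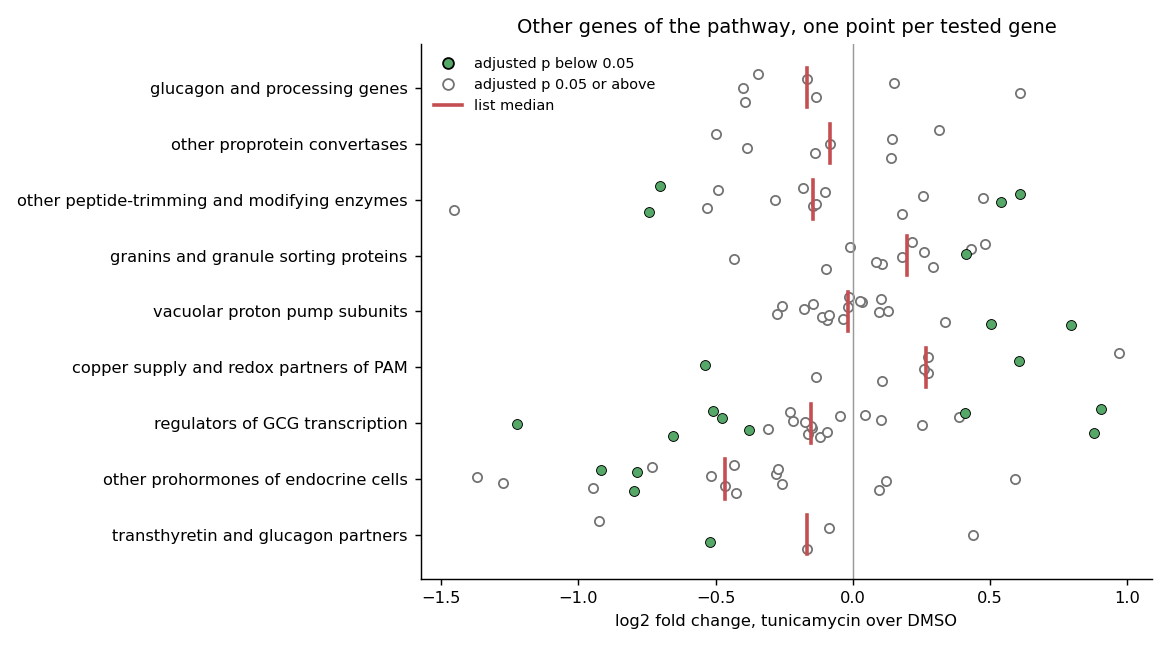
Log2 fold change (tunicamycin over DMSO) of each tested gene of the members and of 8 lists of related genes. Filled green points passed at an adjusted p below 0.05 in the fit with batch but not sample number. Open points did not, and red bars are list medians. No member is filled, while RFX6 and PAX6 lie near 0.90 among the regulators of GCG.

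The genes whose level followed GCG most closely over the 12 samples were RPS27L, COX14, RAB4A, GSTM3 and DERA, out of 11552 genes compared. Pearson's r of log2 CPM was 0.96, 0.95, 0.94, 0.94 and 0.94, and Spearman's rho 0.89, 0.82, 0.87, 0.90 and 0.90. After removal of the means of each group and batch, r was 0.96, 0.98, 0.91, 0.91 and 0.91. These values describe the highest of many correlations over samples that share treatment, batch and culture. Of the 5, GSTM3 fell with tunicamycin (-0.44, adjusted p = 0.0390), a call lost without any of 8 samples (0.0526 to 0.0956), all but DMSO 3, 4 and 6 and tunicamycin 2, and with the mesenchymal covariate (0.0573).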

How the data were processed

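Whole-number read counts per gene symbol, not normalized, were taken as deposited. Per the submitters' processing notes the authors used cutadapt 4.4, HISAT2 2.1.0 and featureCounts 2.0.6 with GRCh38. Annotation, strand and overlap settings were not given in the sources used here. Gene positions and exon lengths are from GENCODE release 29 (GRCh38), which need not be the annotation counted on, and levels of different genes are compared per kb of merged exon.

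From these counts, filterByExpr of edgeR 4.0.16 (R 4.3.3) with batch and treatment kept 17137 genes and removed 11141, SCG5 among the latter. CPM and tests used TMM factors. Tunicamycin was compared with DMSO by the quasi-likelihood test of edgeR, with sequencing batch in the model, Benjamini-Hochberg adjustment over all tested genes and a threshold of 0.05. Every p is two-sided and every fold change is tunicamycin over DMSO. Alternatives included DESeq2 1.42.0 and voom of limma 3.58.1, other scalings, no filter, other covariates, each batch alone and leaving out each sample. The mesenchymal covariate was measured after treatment and can take up part of its effect. Calls lost or gained with it cannot be told apart from this. The tests were also run on simulated counts. These were drawn independently for each sample, without the likeness of samples of equal number, so they do not check that setting.

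Samples of equal number were treated as pairs in the counts of pairs and in the blocked fits. The main test had sequencing batch but not sample number in its model. Fits without 1 sample had the same model, so calls lost there refer to it and not to the blocked fit. For numbers 1 to 6, deviations from group and batch means of samples of equal number correlated across genes at 0.50, 0.58, 0.52, 0.12, 0.18 and 0.18. The highest correlation of each DMSO sample with a treated sample of another number was 0.27, 0.20, 0.10, 0.07, 0.02 and 0.08. Blocked fits are given where they change a call of a member or a count of a list. No pair of samples in a group agreed within sampling noise (chi-square per gene 10.9 to 99.6).

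The members and gene lists were chosen with earlier results of these data known. All members are named. Of each list, up to 4 called genes were named (mean log2 CPM at least 1), or the 2 most abundant where none was called, and the 5 genes most like GCG (mean log2 CPM at least 3). Genes named otherwise were chosen after their values were seen. Some genes of the lists enter the counts and medians but are not reported here by name. For correlations 0.5 was added to CPM.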

Additional observations from a re-analysis of the deposited data

Results flagged for a closer look

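In tunicamycin 2, CPE stood at 3751 CPM, against 1834 to 2550 CPM in the other 5 treated samples. Dixon's ratio, the gap over the range, was 0.627, barely past the 95% limit of 0.625 for 6 samples. PCSK1N stood at 1829 CPM in the same sample, against 899 to 1110 CPM in the other 5 (ratio 0.773). Chance sets a sample apart in about 1 of 20 groups, and 14 groups were checked. Without tunicamycin 2 the log2 fold change of CPE was 0.43 (adjusted p = 0.156) and that of PCSK1N -0.57 (adjusted p = 0.0595). Its summed mesenchymal markers, 887 CPM, were the lowest of the treated group, and their part in these values was not tested.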

How the results depend on the processing

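With 24 alternatives for each of 7 members, 160 values kept their direction and their side of the threshold. No member was called in the main fit, so this count shows only that uncalled values stayed uncalled. The count of members called higher was 1 with DESeq2 and with the sample number as a block, and between 0 and 1 when 1 sample was left out. The count called lower was 1 with DESeq2 and 1 with the mesenchymal covariate, and 0 in every fit without 1 sample. GCG was called with DESeq2 (-0.40, adjusted p = 0.0374). Over fits without 1 sample it ran from -0.46 to -0.32, PCSK2 from -0.33 to 0.039 and FURIN from -0.0021 to 0.24. The block for sample number changed no call of a member other than CPE. The sign turned for PCSK2 without DMSO 2 (0.039), for PAM (-0.0040) and TTR (0.068) in batch 2 alone, and for FURIN with the mesenchymal covariate (-0.11) and without tunicamycin 2 (-0.0021). The cause was not tested. Of 24 called genes outside the members that were followed through the alternatives, 13 lost the call without at least 1 sample. Each batch alone has 3 samples a group. GCG took 1095327 to 2484493 counts per sample, so counting error is small there, while SCG5, with 0 to 5, could not be assessed.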
